A study of Mus musculus with 2 samples.

Results

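The clustered protocadherin genes form a tandem array of cell adhesion genes on mouse chromosome 18. They were taken as all genes between 36.9 and 37.9 Mb (GENCODE M21, GRCm38) whose symbol begins with Pcdha, Pcdhb or Pcdhg and goes on with a number or a subgroup letter. This gave 58 of the 53843 annotated genes on the autosomes and X: 14 alpha, 22 beta and 22 gamma genes, all on the plus strand. Of these, 57 are annotated as protein-coding and 1, Pcdhgb8, as a polymorphic pseudogene. The rule uses position and name, and no value of the boundary list.

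The data are a list of chromatin domain boundaries from in situ Hi-C, a method that ligates DNA ends lying close together in the nucleus after cutting with DpnII. The cells were olfactory sensory neurons that express the odorant receptor gene Olfr17 (P2), sorted by flow cytometry from the olfactory epithelium of P2-GFP mice. The animals were adults of mixed sex and of strain 129P2/OlaHsd, and the labels list neither a treatment nor a modification. The 2 biological replicates, of 23000 and 20000 cells fixed in 1% formaldehyde, form 1 group and were combined into 1 list, so neither the spread between them nor a comparison with another cell type could be measured, and no test was possible. For the number of animals, the depth of the contact map and the boundary caller, the sources used here give nothing. The list holds no expression values against which the labelled cell type could be checked.

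Protocadherins of these clusters are transmembrane proteins of the cadherin superfamily that bind like with like between cells. A neuron uses a combination of promoters from the array that varies between neurons, which gives it a surface identity and lets its branches avoid each other. In olfactory sensory neurons, loss of the clusters is known to disturb the arbors of the axons in the olfactory bulb. Each alpha and gamma gene has a large variable exon of its own, which encodes the extracellular and transmembrane parts, spliced to constant exons that the whole group shares and that encode a common cytoplasmic tail. Beta genes lack such constant exons. Promoter use is known to depend on distal enhancers and on CTCF, a zinc finger protein that with cohesin anchors chromatin loops.

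The alpha, beta and gamma genes lay in 3 separate intervals of the boundary map, with no mixing of groups. A boundary is a bin of 5 kb across which contacts are depleted, and an interval is the stretch between the midpoints of neighbouring boundaries. All 14 alpha gene starts (annotated 5′ ends) lay in an interval of 405 kb, all 22 beta starts in the next one, of 425 kb, and all 22 gamma starts in the one after that, of 245 kb. Over the 7556 intervals of the map the median length was 260 kb, with quartiles of 180 and 395 kb, which puts the alpha, beta and gamma intervals at percentiles 76.5, 78.8 and 46.1. The division between beta and gamma rests on a Weak boundary: with Strong boundaries alone the members fell into 2 intervals, and the beta and gamma genes shared 1 of 755 kb.

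**Figure D1:**
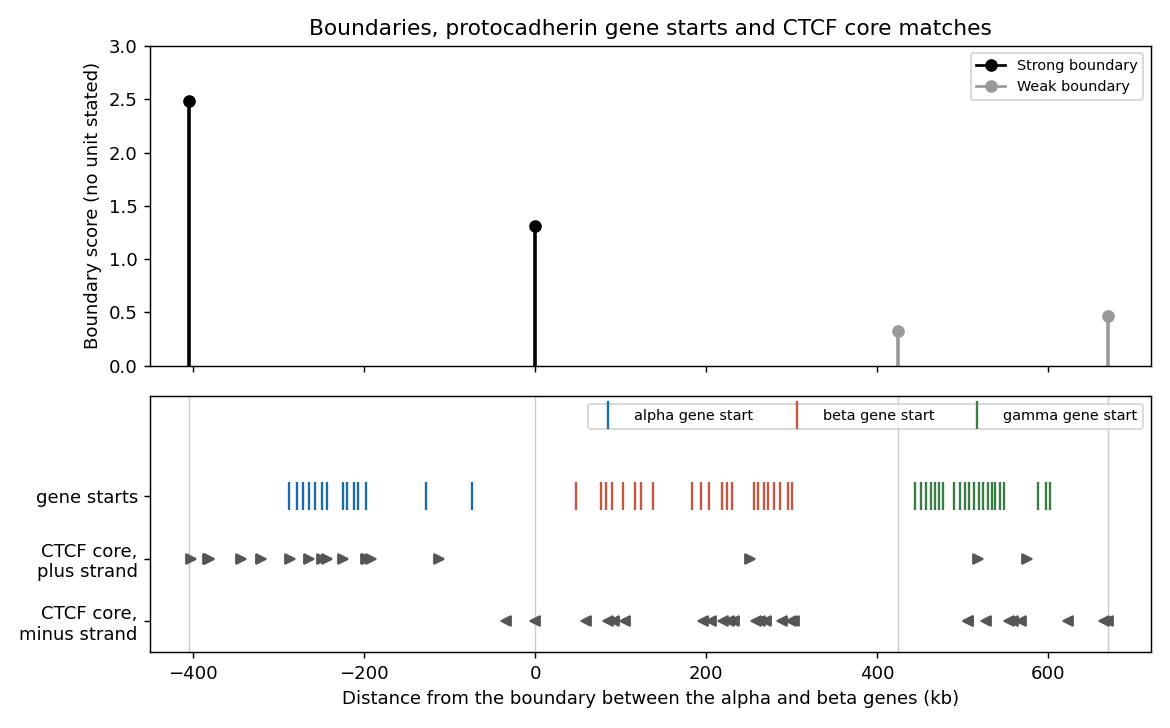
Upper panel, authors' boundary score (no unit stated) of the 4 boundaries around the protocadherin intervals; lower panel, starts of the 58 genes and CTCF core consensus matches by strand, against the distance in kb from the boundary between alpha and beta genes. Each group of gene starts sits between its own pair of boundaries, and the matches are mostly on the plus strand in the alpha interval and on the minus strand in the beta and gamma intervals.

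The 4 boundaries around these intervals differed in score. The score is the authors' own value for a boundary, with no stated unit, and has a median of 0.545 over the 7576 boundaries (quartiles 0.312 and 0.971). Bins labelled Strong all had at least 0.5002 and those labelled Weak at most 0.4996. The boundary before the alpha genes (36810001 to 36815000) was Strong with a score of 2.48, rank 81 of all boundaries and rank 2 of the 272 on chromosome 18. It is intergenic, 18.6 kb from the start of Zmat2, a zinc finger gene of the splicing machinery, and 118 kb from Pcdha1.

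Between the alpha and beta genes lay a Strong boundary of score 1.31 (37215001 to 37220000, percentile 86.3), 29.8 kb past the end of the shared last alpha exon and 47.4 kb before Pcdhb1. The boundary between the beta and gamma genes (37640001 to 37645000) was Weak, with a score of 0.331 at percentile 28.0. Its midpoint falls in an exon of Taf7, which encodes a subunit of the general transcription factor TFIID, 1.70 kb from the Taf7 start and 19.3 kb before Pcdhga1. The boundary past the gamma genes (37885001 to 37890000) was also Weak, with a score of 0.463 at percentile 43.5, and lay in an intron of Diaph1, a formin that assembles actin filaments. The scores at the alpha interval thus exceeded those at the gamma interval, while the beta interval had a Strong boundary on its left and a Weak one on its right.

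Farther out, the next boundaries to the left were Strong (0.875, in an intron of Slc4a9, a bicarbonate transporter gene), Weak (0.414, 10.0 kb from Cystm1) and Weak (0.301, 5.12 kb from Nrg2, a neuregulin gene). To the right they were Strong (1.61, 2.73 kb from Fchsd1), Strong (1.21, in an intron of Rnf14) and Weak (0.434, 82.1 kb from Ndfip1). The Strong boundary of score 1.61 closes the 755 kb stretch that beta and gamma genes share when Weak boundaries are left out. Counted from the first to the last base of the members (36930184 to 37841873, 0.912 Mb), the cluster held 2 boundaries, or 2.19 per Mb, beside 2.96 per sequenced Mb over the map. The 500 kb to its left also held 2, and the 500 kb to its right held 3. With Strong boundaries alone the count inside was 1.

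Alpha and beta gene starts were seldom near a boundary. Gamma starts had shares closer to those of other genes at 50 and 100 kb. At 10 and 25 kb gamma starts were also seldom near one, with 0% and 4.55%. None of the 58 had a boundary within 10 kb, where 11.5% of the 21755 protein-coding genes have one. Within 25 kb there was 1 member, Pcdhga1, beside 23.9% of protein-coding genes. Within 50 kb there were 7 members (12.1%), beside 43.2% of protein-coding genes and 37.0% of genes of any type, and within 100 kb 22 members (37.9%), beside 72.4%. Genes in crowded intervals are less often near a boundary: among the 6091 protein-coding genes in intervals with at least 10 gene starts, the shares were 6.60% within 10 kb and 29.6% within 50 kb. Among the 8048 genes in intervals of 245 to 425 kb, 36.3% had a boundary within 50 kb. By group, 0% of alpha, 4.55% of beta and 27.3% of gamma genes had a boundary within 50 kb, and 7.14%, 18.2% and 77.3% within 100 kb. The gamma share at 100 kb was thus near that of all protein-coding genes. At 50 kb it was near that of genes in crowded intervals and below that of genes in intervals of 245 to 425 kb. The length of an interval limits these distances, and the gamma interval, of 245 kb, was the shortest. No background limited by interval length was taken at 100 kb. Since the 58 starts share 4 boundaries, they are not independent observations, and these counts are given without a test.

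The distance to the nearest boundary was shortest for the gamma group. Its median was 75.1 kb (range 19.3 to 122 kb, n = 22), against 142 kb for beta (47.4 to 207 kb, n = 22) and 152 kb for alpha (74.0 to 198 kb, n = 14), with 59.2 kb over all protein-coding genes. The ranges of all groups overlap. The gamma interval was also the shortest, at 245 kb against 405 kb for alpha and 425 kb for beta. A start lies at most as far from a boundary as the middle of its interval, so interval length limits these distances. Of the 7 members within 50 kb of a boundary, 6 were gamma genes, 1 was a beta gene and 0 were alpha genes. With Strong boundaries alone the order turned, to 244 kb for gamma, 211 kb for beta and 152 kb for alpha, and 1 member, Pcdhb1, remained within 50 kb.

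**Figure D2:**
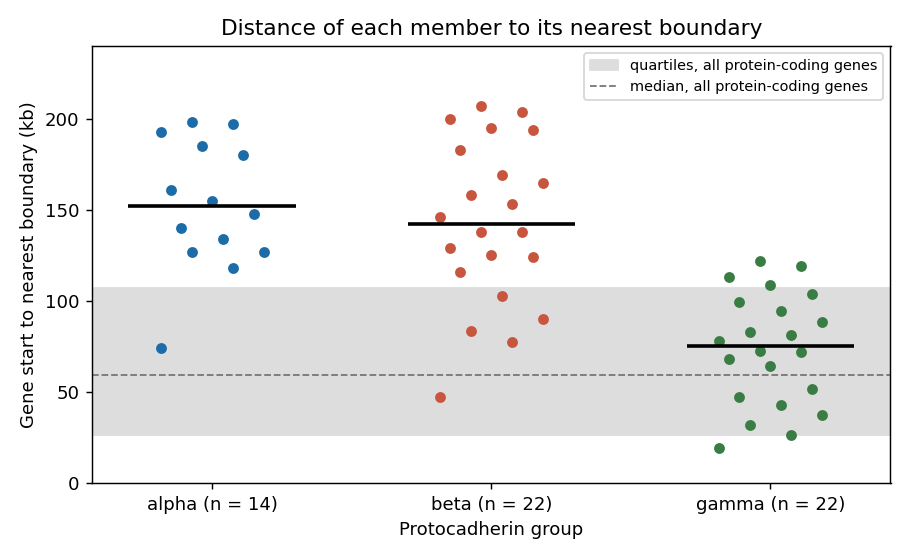
Distance in kb from each member's start to the nearest boundary midpoint, by group, with the group median as a black line. The grey band spans the quartiles of all protein-coding genes; 13 of 14 alpha genes lie above the band, whereas most gamma genes lie inside it.

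Within the alpha group, the genes in the order Pcdha1 to Pcdha12 lie from 29.1% to 51.3% of the length of their interval, counted from its left end, and the C-type genes Pcdhac1 and Pcdhac2 lie at 68.5% and 81.7%. The C-type members are those that many neurons express without random choice. Pcdha1 lay 118 kb from the left boundary, Pcdha2 127 kb and Pcdhac2 74.0 kb from the right boundary, and these were the nearest alpha genes. Pcdhac1 lay 127 kb from the right boundary. The farthest starts were those of Pcdha12 (197 kb) and of both genes that this annotation calls Pcdha11, at 198 kb (ENSMUSG00000102206) and 193 kb (ENSMUSG00000007440). RefSeq names the latter Pcdha10. Between these, Pcdha3 to Pcdha7 followed each other from 134 to 161 kb, and Pcdha8 and Pcdha9 lay at 180 and 185 kb, all measured from the left boundary. Of the 14 alpha starts, 11 were nearer to the boundary on the left and 3 to that on the right.

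All alpha transcripts run into the shared constant exons, whose first lies at 37156155 to 37156213 and 61.3 kb before the right boundary. The second, at 37159265 to 37159353, lies 58.1 kb before it, and the last ends 29.8 kb before it. The variable exons and the exons to which they are spliced were therefore on the same side of the Strong boundary of score 1.31 in all 14 alpha genes.

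The beta genes, each annotated with 1 exon, lie from 11.2% to 70.7% of the length of their interval. Pcdhb1, the nearest, lay 47.4 kb from the left boundary, Pcdhb2 77.3 kb and Pcdhb3 83.3 kb. Pcdhb12 at 207 kb, Pcdhb11 at 204 kb and Pcdhb13 at 200 kb were the farthest, with 11 beta genes nearer to each side. On the left side Pcdhb4 to Pcdhb8 lay at 90.0 to 138 kb, and Pcdhb9 and Pcdhb10 at 183 and 194 kb after the wide gap past Pcdhb8. On the right side Pcdhb14 lay at 195 kb, and Pcdhb15 to Pcdhb21 at 169 down to 129 kb. The last beta gene, Pcdhb22, lay 125 kb from the right boundary. The stretch between Pcdhb22 and that boundary holds Slc25a2, a mitochondrial ornithine carrier gene, 3.75 kb from the boundary.

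Gamma genes began close to their left boundary and ended farther from the right one. Pcdhga1 lay at 19.3 kb, Pcdhga2 at 26.5 kb and Pcdhga3 at 31.8 kb, followed by Pcdhgb1 (37.7 kb), Pcdhga4 (42.7 kb) and Pcdhgb2 (47.3 kb). The genes from Pcdhga5 (51.9 kb) to Pcdhgb7 (109 kb) followed in the order of the array. Subgroups A and B are interleaved from Pcdhgb1 onward, while the nearest genes, Pcdhga1 to Pcdhga3, are all of subgroup A. The farthest were Pcdhga12 (122 kb), Pcdhgb8 (119 kb) and Pcdhga11 (113 kb). The C-type genes lay nearer to the right boundary, Pcdhgc3 at 81.1 kb, Pcdhgc4 at 72.4 kb and Pcdhgc5 at 68.0 kb. Of the 22 gamma starts, 18 were nearer to the left boundary and 4 to the right one. The shared gamma exons end 45.6 kb before that boundary, so variable and constant exons again lay in the same interval for all 22 genes.

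No member's annotated body crossed a boundary (0 of 58), while 13.0% of protein-coding genes do. The 22 beta genes span only 2.59 to 8.70 kb, so they add little to this count. Alpha genes span 44.2 to 257 kb and gamma genes 22.4 to 180 kb because each is annotated from its variable exon to the shared last exon, and 25 of these 36 genes span at least 100 kb. Among protein-coding genes of at least 50 kb 32.6% cross a boundary, and among those of at least 100 kb 45.9% do. The members overlap each other in most of their length, so the 25 long ones amount to a single alpha and a single gamma stretch. In contrast, 3 other protein-coding models of the annotation, Gm42416, Gm37013 and Gm37388, cross both inner boundaries. They join a first exon in the alpha array to the gamma constant exons, with spans of 887, 863 and 857 kb.

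Both inner boundaries lay in the longest gaps between neighbouring members. Of the 57 gaps between member starts, 2 held a boundary, beside 26.8% of the gaps between neighbouring protein-coding starts. These 2 were the longest, from Pcdhb22 to Pcdhga1 (144 kb) and from Pcdhac2 to Pcdhb1 (121 kb). Gaps of 100 to 200 kb between protein-coding starts hold a boundary in 51.0% of cases. The next in length, from Pcdha12 to Pcdhac1 (69.9 kb), from Pcdhac1 to Pcdhac2 (53.5 kb), from Pcdhb8 to Pcdhb9 (45.7 kb) and from Pcdhga12 to Pcdhgc3 (40.8 kb), held none. Most member gaps were short, 42 being under 10 kb, a class in which 3.21% of protein-coding gaps hold a boundary. The gap from Pcdhb22 to Pcdhga1 is interrupted by other genes: the boundary falls in the 5.46 kb between the starts of Slc25a2 and Taf7, and the 121 kb from Pcdhb22 to Slc25a2 held none. Counted between all protein-coding starts, this boundary thus belongs to the class under 10 kb and not to that of 100 to 200 kb.

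**Figure D3:**
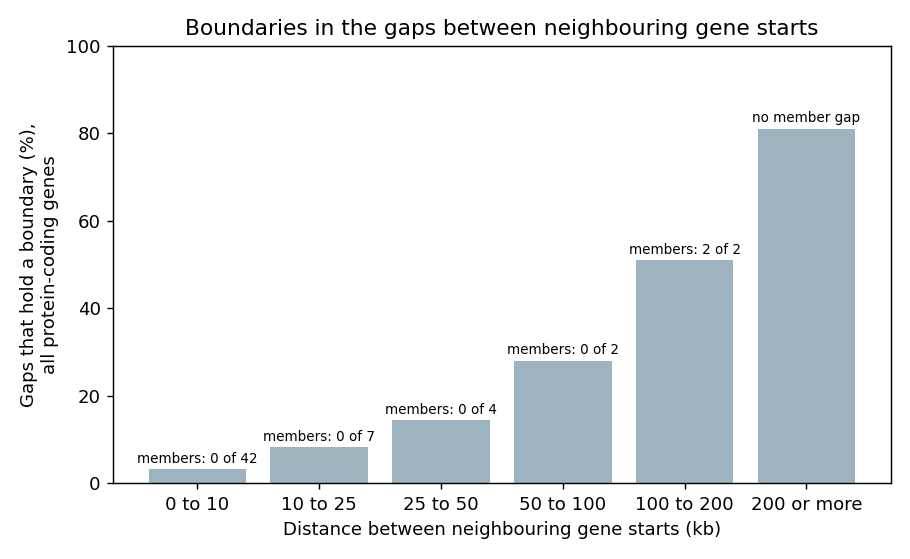
Share (%) of gaps between neighbouring protein-coding gene starts that hold a boundary, by gap length in kb (bars), with the number of gaps between neighbouring protocadherin genes that do so above each bar. The share rises from 3.21% to 81.1% with gap length, and the member gaps with a boundary are the 2 in the class of 100 to 200 kb. Member gaps skip other genes. Counted as in the bars, the boundary between beta and gamma genes lies in a gap of 5.46 kb, from Slc25a2 to Taf7.

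The protocadherin intervals were crowded with gene starts. The alpha interval held 17 protein-coding starts, the beta interval 23 and the gamma interval 22, against a median of 2 over all intervals. These counts stand at percentiles 98.7, 99.5 and 99.4. High counts follow from the choice of a tandem array of genes and are not a separate result. Only 3 starts in the alpha interval, those of the long models named above, belonged to genes that are not members. They fall within the first exons of Pcdha4, Pcdha6 and Pcdha7. The beta interval held 1 start of a non-member (Slc25a2) and the gamma interval 1 (Taf7). Pcdhgb8, as a pseudogene, is not counted among protein-coding starts. Per 100 kb there were 4.20, 5.41 and 8.98 starts, so the gamma interval was the most densely filled. The neighbouring interval on the left, 270 kb with the genes from Ankhd1 to Zmat2, held 16 starts. On the right followed an interval of 85.0 kb (percentile 0.741 by length) with the starts of Diaph1, Hdac3, Rell2 and Fchsd1.

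**Figure D4:**
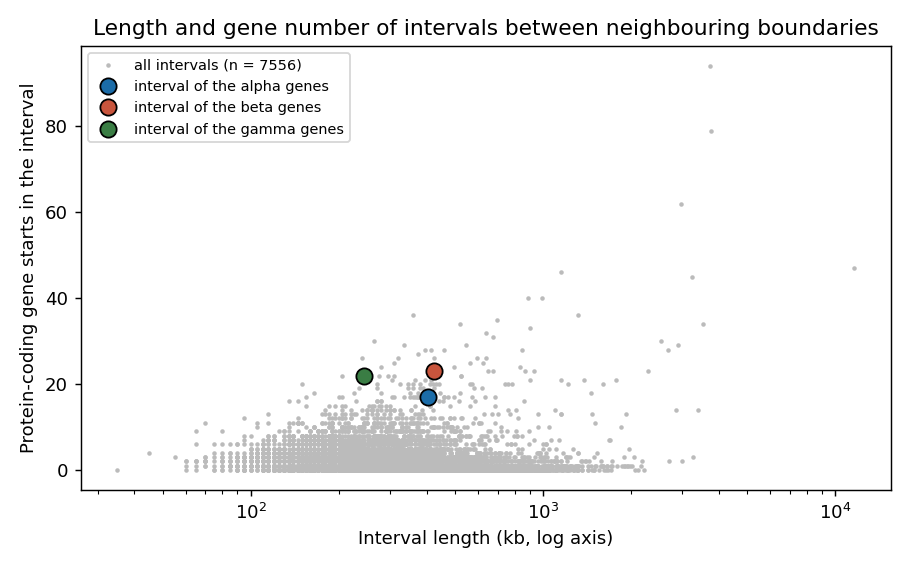
Number of protein-coding gene starts against length (kb, log axis) for all 7556 intervals between neighbouring boundaries, with those of the alpha, beta and gamma genes marked. The marked intervals hold 17, 23 and 22 starts at lengths of 405, 425 and 245 kb, near the upper edge of the cloud.

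Exact matches to the CTCF core consensus were searched on both strands of the reference. In first exons of alpha and beta genes they lay on opposite strands. In the promoter window, from 250 bases before to 50 after the start, 0 of 58 members had a match, beside 1.18% of protein-coding genes. In the first exon, 6 of 14 alpha genes and 14 of 22 beta genes had 1 each, and 0 of 22 gamma genes did. The share over all protein-coding genes is 0.703%, but their first exons have a median of 212 bases, against 2494, 3714 and 2604 bases for alpha, beta and gamma. Among 429 other protein-coding genes with a first exon of at least 2 kb, 8.16% had a match. Per 100 kb of first exon there were 17.0 matches in alpha, 15.1 in beta, 0 in gamma and 2.47 in those other genes. The gamma first exons hold only 57.6 kb. With backgrounds this low, 0 of 58 promoters and 0 of 22 gamma first exons do not show a depletion.

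The matches lay at like distances from the start within a group. In Pcdha1, Pcdha4, Pcdha6, Pcdha7, Pcdha8 and Pcdha12 they lay 543 to 587 bases after the start, all in the orientation of the gene, and they were also matches to a stricter CTCF consensus. In the 14 beta genes they lay 2277 to 2816 bases after the start, all in the opposite orientation, and none met the stricter consensus. The beta genes without one were Pcdhb1, Pcdhb2, Pcdhb6, Pcdhb7, Pcdhb8, Pcdhb9, Pcdhb18 and Pcdhb19. Variable exons of a group are known to be related copies, so the matches are not independent of each other, and the similarity of the matched stretches was not tested. A match is not measured binding. No match says only that this consensus is not in the window.

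Counts over whole intervals include these first-exon matches, so they are not a separate observation of the contrast between alpha and beta. The alpha interval had 15 of 17 matches on the plus strand, the beta interval 15 of 16 on the minus strand and the gamma interval 9 of 11 on the minus strand. In the map, 4.02% of intervals with at least 10 matches have at least 80% of them on 1 strand. Both limits were chosen after values were seen. Of the 17 alpha matches 6, and of the 16 beta matches 14, lay in first exons of members, which are known to be related copies. The 4.02% therefore does not measure how unusual the strands are here. Outside the members' first exons, 9 of 11 alpha matches were on the plus strand and 9 of 11 gamma matches on the minus strand, whereas the beta interval had 1 on each. Of the 11 gamma matches, 8 lay in the first intron of Pcdhga1, 1 in the last shared exon and 2 past it. Of the 9 alpha matches on the plus strand, 6 lay before Pcdha1 and 3 in its first intron. The alpha matches on the minus strand were the last ones in the interval, at -34.0 kb and -0.0260 kb from the midpoint of its right boundary, where negative values lie to the left. The former lies in the intron before the last shared alpha exon.

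**Figure D5:**
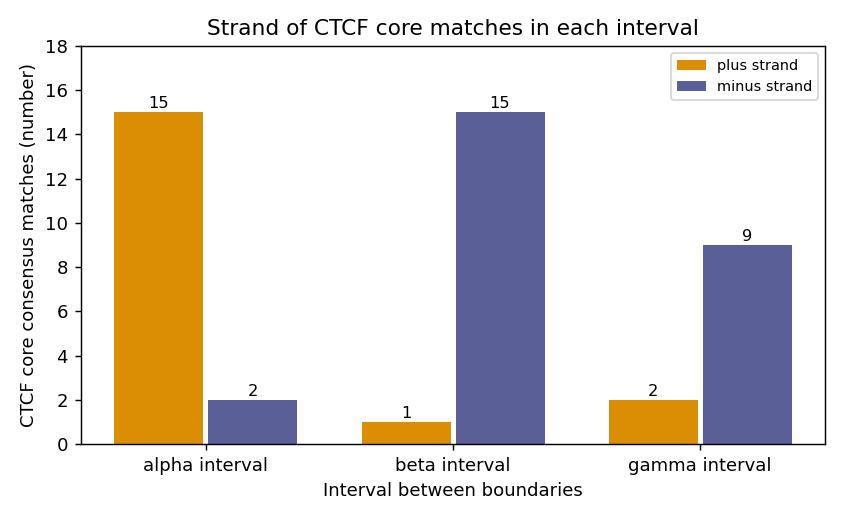
Number of exact CTCF core consensus matches on the plus and minus strands of the reference in each interval between boundaries. The alpha interval has 15 on the plus and 2 on the minus strand, the beta interval 1 and 15, and the gamma interval 2 and 9.

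Of the 4 boundaries around the members, 3 had a core match within 10 kb of the midpoint, where 58.0% of all boundaries have one. The boundary before the alpha genes had 1, on the plus strand at 2.10 kb to the right of its midpoint. That between alpha and beta had the 1 already described, and that past the gamma genes had 2, both on the minus strand and both also matching the stricter consensus. The Weak boundary at Taf7 had none, and the nearest match lay 80.7 kb away.

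The median sequence composition also differed between the groups, with no test. First exons of alpha and gamma genes had a median GC content of 53.1 and 52.5% (ranges 51.3 to 57.0 and 48.9 to 56.8%), and beta genes, whose single exon includes untranslated sequence, 46.0% (39.1 to 49.0%). The ratio of observed to expected CpG was 0.665 in alpha, 0.386 in beta and 0.555 in gamma first exons. In the promoter window the ratio was 0.638, 0.427 and 0.556, around the 0.530 of all protein-coding promoters. The GC content there was 38.7, 39.5 and 42.2%, against 55.0% for all protein-coding promoters. The sites of DpnII, GATC, were about equally dense in the alpha, beta and gamma intervals, at 2.82, 2.80 and 2.78 per kb. They were less dense in the adjoining intervals, at 2.43 per kb on the left and 2.58 on the right. The part that site density plays in the placement of boundaries was not tested. The boundary bin between alpha and beta held 6 such sites and that between beta and gamma 13, against a median of 12 over all boundary bins.

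Near-identical copies can lose reads in mapping, so reference reads of 100 bases were aligned back to the genome. In the first exons 94.5% of alpha, 98.9% of beta and 97.9% of gamma reads mapped uniquely, with the reads of all members of a group pooled. The lowest members were the Pcdha11 gene that RefSeq calls Pcdha10 (83.3%), Pcdha6 (84.0%) and Pcdhgb2 (84.0%). Over whole intervals, reads taken every 500 bases were unique for 86.3% of alpha, 85.2% of beta and 98.6% of gamma positions, with 90.5% over the genome. The exons themselves thus held a larger share of unique reads than the alpha and beta intervals as a whole. Within 50 kb of the boundaries, the share was 87.1% before the alpha genes, 93.5% between alpha and beta, 87.1% between beta and gamma and 99.0% past the gamma genes. The part that read uniqueness plays in the placement of boundaries was not tested.

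Of 12 protocadherin genes outside the clusters, which encode related adhesion proteins, 7 had a boundary within 50 kb, beside 43.2% of all protein-coding genes. Their median distance was 37.2 kb and their range 6.19 to 353 kb. Pcdh8 lay at 6.19 kb, Pcdh9 at 16.8 kb from a Strong boundary of score 2.55, Pcdh12 at 18.1 kb and Pcdh17 at 26.1 kb from a Strong one of score 2.00. Pcdh7 lay at 35.5 kb, Pcdh10 at 35.9 kb and Pcdh19 at 38.5 kb, each from a Strong boundary. The farthest were Pcdh15 (353 kb), Pcdh20 (96.1 kb) and Pcdh1 (90.4 kb). Pcdh1 and Pcdh12 lie close to the clusters on chromosome 18, in a single interval of 330 kb that begins at the Strong boundary of score 1.61. No difference from the clustered genes or from other genes was tested, and 12 genes are few for such a share.

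Of 11 genes for known regulators of the clusters, 4 had a boundary within 50 kb. These were Nipbl, the cohesin loader (8.04 kb), the DNA methyltransferase gene Dnmt3b (26.9 kb), and the cohesin subunit genes Rad21 (45.8 kb) and Smc3 (47.1 kb). Smchd1, a silencing factor, lay farthest at 177 kb, followed by Dnmt3a at 111 kb and the cohesin release factor gene Wapl at 101 kb, and Ctcf lay at 74.1 kb. Of 4 genes for cytoplasmic partners, 3 had one within 50 kb, namely the kinase genes Fyn (1.35 kb), Ptk2b (6.45 kb) and Ptk2 (49.2 kb). Cyfip2 lay at 65.4 kb. Both shares, 4 of 11 and 3 of 4, come from too few genes to be set against the 43.2% of all protein-coding genes.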

How the data were processed

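The authors called boundaries on a contact matrix of both replicates combined (GRCm38), per the labels' design text. On the caller, aligner, filters and depth the sources used here give nothing. Every boundary comes with its bin (5 kb), its strength class and a score, which was used as deposited. No sample-level values were used, and no count of contacts was at hand. The members, gene lists and settings were chosen with earlier results of these data known.

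Genes came from GENCODE M21 (autosomes and X) and sequence from the GRCm38.p6 reference of C57BL/6J, while the mice were 129P2/OlaHsd. Coordinates count from 1. Distances run from the annotated 5′ end of a gene to the midpoint of a boundary bin. First exons came from the longest basic transcript. Percentiles give the share of values at or below a value. Consensus matches were exact. Reads of 100 bases were aligned with minimap2 2.31, and a mapping quality of at least 30 at the place of origin counted as unique. Python 3.11.15 was used. Distance, interval and motif functions were tested on simulated data.

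Genes named are the first and last of each group, the C-type genes, the 3 nearest and 3 farthest of each group, other genes in the cluster, those nearest to the boundaries, and listed genes within 50 kb or farthest. All other members named, Ctcf and Cyfip2 were chosen after values were seen. So were the backgrounds limited to crowded intervals, intervals of 245 to 425 kb or first exons of at least 2 kb. The strand background, with its limits of 10 matches and 80%, was also chosen then. Alternatives were Strong boundaries alone, the 3788 with the highest scores, other distances, positions, spans, gene types and motifs.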

Additional observations from a re-analysis of the deposited data

How the results depend on the processing

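No paired analysis was possible because the list combines both replicates, and for the same reason no replicate could be left out. With Strong boundaries alone, and equally with the 3788 boundaries of highest score, the members lay in 2 intervals in place of 3, the cluster held 1 boundary in place of 2, and the beta and gamma intervals became the same one of 755 kb. The median distances then were 211 kb for beta and 244 kb for gamma, and 1 member had a boundary within 50 kb (0 gamma genes). The alpha values did not move under either setting. At 10, 25 and 100 kb in place of 50 kb, the counts were 0, 1 and 22 over all members, 0, 1 and 17 for gamma, 0, 0 and 4 for beta, and 0, 0 and 1 for alpha. Measured from the middle of the first exon, the medians were 153, 141 and 76.4 kb for alpha, beta and gamma, and to the nearer edge of the bin 149, 139 and 72.6 kb. Without Pcdhgb8 the gamma median was 72.4 kb. Among the boundaries of chromosome 18, the scores stood at percentiles 99.6, 84.2, 26.5 and 41.5 from left to right. Counting genes of any type, the alpha interval held 27 starts, and 37.0% of genes had a boundary within 50 kb. Within 1 kb of the start, 6 alpha genes, 0 beta and 0 gamma genes had a CTCF core match, beside 6.84% of protein-coding genes. No member crossed a boundary under either boundary set. The depth of the map is unknown, so Weak boundaries carry no stated error.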

Other observations

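The annotation gives the symbol Pcdha11 to 2 genes, ENSMUSG00000007440 and ENSMUSG00000102206, whose starts lie at 37005203 and 37010712. RefSeq places Pcdha10 at the former. The interval before the alpha genes, from the Strong boundary of score 0.875 to that of 2.48, held 21 CTCF core matches, 14 of them on the plus strand, and the one past the gamma genes held 3, all on the minus strand.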
